A study of Mus musculus with 6 samples.

Results

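B130006D01Rik, D030028A08Rik and Gm17106 are 3 long non-coding RNAs (lncRNAs) whose probes gave a lower signal in the hippocampus of Nrf2 (-/-) mice than of Nrf2 (+/+) mice. They are 3 of the 60915 probes on the array and of the 43528 probes tested. The genes of B130006D01Rik and D030028A08Rik are on chromosome 11 and that of Gm17106 is on chromosome 16. The probes, ASMM10P054358, ASMM10P049280 and ASMM10P014330, were chosen because of their lower signal in this same comparison, so the genotype differences of the 3 lncRNAs are given as a description without a test. Hippocampal RNA came from mice of ICR background, 3 to 4 months old. Of these, 3 animals carried the Nrf2 gene knockout, written Nrf2 (-/-), and 3 were wild-type, written Nrf2 (+/+). The study calls the Nrf2 (+/+) mice male and does not repeat the sex for the Nrf2 (-/-) mice. Each mouse had 1 Arraystar mouse lncRNA microarray, a single-colour array that holds probes for mRNAs and lncRNAs together.

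A lncRNA is a long transcript with no recognised protein product. Some lncRNAs act on chromatin or on genes near their own locus, some bind proteins or microRNAs, and for many no role is known. No role is given here for the 3 lncRNAs themselves. Nrf2, the protein encoded by Nfe2l2, is a transcription factor that is held and degraded through Keap1 in resting cells. Under oxidative stress it enters the nucleus, pairs with small Maf proteins and binds antioxidant response elements, through which it raises genes of glutathione synthesis, detoxification and iron handling.

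The stretches around the annotated starts of the chromosome 11 genes are shown because they are the sequence in which an Nrf2-type element can be looked for directly. Both come from RefSeq for GRCm38.p6 and cover 250 bases before to 50 bases after the start, on the plus strand, at chr11:95723336-95723635 for B130006D01Rik and chr11:96943896-96944195 for D030028A08Rik. Capitals mark CCAAT on either strand, where ATTGG is the same motif read from the minus strand.
B130006D01Rik: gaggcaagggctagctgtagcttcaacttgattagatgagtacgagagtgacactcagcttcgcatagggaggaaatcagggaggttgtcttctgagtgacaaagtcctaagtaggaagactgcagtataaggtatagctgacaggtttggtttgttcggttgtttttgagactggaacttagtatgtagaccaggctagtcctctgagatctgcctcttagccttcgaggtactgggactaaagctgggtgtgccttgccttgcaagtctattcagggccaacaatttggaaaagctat
D030028A08Rik: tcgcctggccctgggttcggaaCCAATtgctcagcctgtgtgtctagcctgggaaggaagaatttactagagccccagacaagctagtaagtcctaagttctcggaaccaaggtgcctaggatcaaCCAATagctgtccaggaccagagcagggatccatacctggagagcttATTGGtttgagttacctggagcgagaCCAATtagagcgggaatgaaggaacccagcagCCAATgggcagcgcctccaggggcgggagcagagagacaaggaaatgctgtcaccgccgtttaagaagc
The core of the antioxidant response element, TGACNNNGC, was searched on both strands and had 0 matches in either stretch. Of the 32851 promoter stretches of the same length in the RefSeq table, 12.4% held it at least once. The absence says only that these letters are not in these windows. The CCAAT motif, a common promoter element bound by the NF-Y complex, had 0 matches at B130006D01Rik and 5 at D030028A08Rik, 4 on the plus strand and 1 on the minus strand. At least 1 CCAAT was found in 37.4% of all stretches and 5 or more in 0.271%. In the D030028A08Rik stretch the leftmost bases of the 5 matches stood at -228, -124, -77, -51 and -19 from the start. The GC content was 46.7% for B130006D01Rik and 54.3% for D030028A08Rik, against a median of 52.7% over all stretches. A match is a run of letters, and binding at these sites was not measured on the arrays.

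In the annotation order, B130006D01Rik lies between Zfp652os and Zfp652, which encodes a zinc finger protein. D030028A08Rik is overlapped on the opposite strand by Sp2, a zinc finger transcription factor. Whether the D030028A08Rik probe also takes up Sp2 transcripts was not tested. The 2 lncRNA genes are separated on chromosome 11 by 60 annotated genes, of which 30 are protein-coding.

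The labels were checked on Nfe2l2 itself. Its log2 signal was 12.40, 11.93 and 12.28 in Nrf2 (+/+) replicates 1, 2 and 3 and 7.95, 7.82 and 8.02 in Nrf2 (-/-) replicates 1, 2 and 3. Compared with Nrf2 (+/+) mice, the signal of Nfe2l2 fell by 4.27 (SE 0.20) on the log2 scale in Nrf2 (-/-) mice, with an adjusted p of 0.000672 in limma. The adjusted p was 0.058 in limma with the replicate number as a block and 0.124 for the methods' t-test, so neither was under 0.05. The study selected mRNAs on an unadjusted p and a fold change, and Nfe2l2 is on its list of changed mRNAs. The genotypes did not overlap on the 6 arrays. The probe remained well above background on 3 of 3 Nrf2 (-/-) arrays, and whether it lies inside the deleted part of the gene is not given in the sources used here. Between 65.5% and 75.7% of the probes of an array were well above background. The median processed signal was 109, 105 and 87.7 on the Nrf2 (+/+) arrays and 184, 172 and 138 on the Nrf2 (-/-) arrays, so the Nrf2 (-/-) arrays were the brighter ones before normalization. The 15 reference genes that could be named from transcript identifiers had log2 differences between -0.23 and 0.77 after quantile normalization, with a median of 0.04. None of the 31 cell type markers listed for hippocampal neurons, glia, choroid plexus and endothelium had a named probe, so the tissue label could not be checked against markers. In whole hippocampus, fewer cells that express a lncRNA and less of it per cell cannot be told apart.

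B130006D01Rik had log2 signals of 9.27, 9.11 and 9.20 in Nrf2 (+/+) replicates 1, 2 and 3. In Nrf2 (-/-) replicates 1, 2 and 3 they were 6.72, 6.33 and 6.38. The genotypes did not overlap, and the gap between the lowest Nrf2 (+/+) array and the highest Nrf2 (-/-) array was 2.40. The mean went from 9.20 ± 0.08 (SD, n = 3) to 6.48 ± 0.21 (SD, n = 3), a difference of -2.72 (SE 0.19). This is a 6.59-fold lower signal, or 15.2% of the Nrf2 (+/+) level, as measured after quantile normalization. The difference was -2.10 after normexp, a model-based correction of the background run with an offset of 50, and the Nrf2 (-/-) signal was 1.06 to 1.51 times that of the brightest negative probe described further on. The Nrf2 (+/+) values were tightly grouped, and only 6.58% of the tested probes had a smaller SD among those arrays.

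D030028A08Rik had log2 signals of 9.93, 9.43 and 9.92 in Nrf2 (+/+) replicates 1, 2 and 3. In Nrf2 (-/-) replicates 1, 2 and 3 they were 6.26, 6.02 and 6.72. Again the genotypes did not overlap, with a gap of 2.71 between the nearest arrays. The mean went from 9.76 ± 0.28 (SD, n = 3) to 6.33 ± 0.36 (SD, n = 3), a difference of -3.43 (SE 0.26). The signal as measured was 10.8-fold lower, at 9.29% of the Nrf2 (+/+) level. After normexp the difference was -2.66, and the Nrf2 (-/-) signal was 0.80 to 1.34 times that of the same negative probe. Its spread was ordinary, with 56.9% of tested probes having a smaller SD among Nrf2 (+/+) arrays and 54.7% among Nrf2 (-/-) arrays. Replicate 2 was the lowest array of its genotype for both chromosome 11 lncRNAs, in Nrf2 (+/+) and in Nrf2 (-/-) mice.

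Gm17106 had log2 signals of 7.83, 8.59 and 8.43 in Nrf2 (+/+) replicates 1, 2 and 3. In Nrf2 (-/-) replicates 1, 2 and 3 the measured values were 2.56, 2.56 and 2.72. Every Nrf2 (-/-) value lay below every Nrf2 (+/+) value. The mean went from 8.28 ± 0.40 (SD, n = 3) to a measured 2.61 ± 0.09 (SD, n = 3), a measured difference of -5.67 (SE 0.24). Unlike the chromosome 11 lncRNAs, Gm17106 was not well above background on any Nrf2 (-/-) array. The Nrf2 (-/-) level is therefore only a bound, the measured differences of Gm17106 here and in the following are not sizes of the loss, and the signal was at least 13.6-fold lower, when the dim probe was set on each array to the smallest signal flagged as well above background. After normexp the difference of Gm17106 was -2.46.

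**Figure D1:**
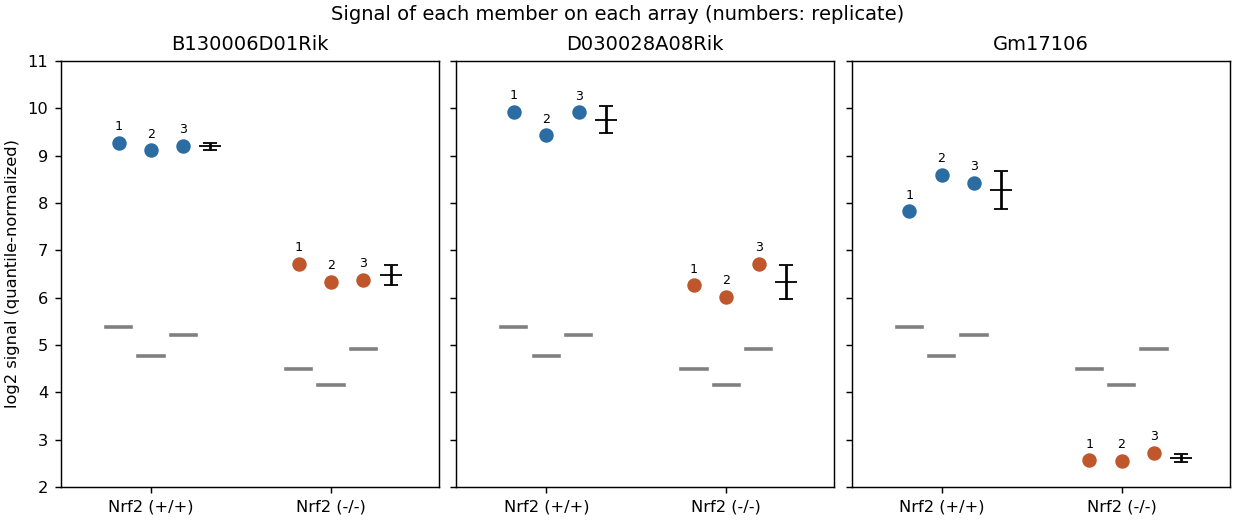
Log2 signal after quantile normalization (vertical axis) of the 3 lncRNAs on each array, by genotype; points are arrays numbered by replicate, black bars are the mean and SD of 3 arrays, and grey lines are the smallest signal flagged as well above background on the same array. The Nrf2 (-/-) points of B130006D01Rik and D030028A08Rik lie above the grey lines and those of Gm17106, at 2.56, 2.56 and 2.72, lie below them.

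All 3 lncRNAs had every Nrf2 (-/-) array below every Nrf2 (+/+) array, a pattern found for 6.23% of all tested probes, and it is the pattern for which they were chosen. Over all probes, 15 had a lower signal at an adjusted p under 0.05, which is 0.0345%, and 489 were lower by more than 2-fold at an unadjusted p under 0.05, which is 1.12%. The count of 15 was not stable. It was 6 or 7 when Nrf2 (+/+) replicate 1 or 3 was left out, and 8, 169 or 9 when Nrf2 (-/-) replicate 1, 2 or 3 was left out. With the replicate number as a block it was 0, and with slide, inferred from the scan time, as a block it was 465.

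Whether a lower lncRNA was partly or wholly lost was examined on the spots before normalization. Each lncRNA had 1 spot per array, and none was saturated or marked as an outlier. The B130006D01Rik spot gave a processed signal of 553, 438 and 436 on the Nrf2 (+/+) arrays and 152, 112 and 88.7 on the Nrf2 (-/-) arrays. The D030028A08Rik spot gave 877, 546 and 728 on the Nrf2 (+/+) arrays and 111, 91.6 and 112 on the Nrf2 (-/-) arrays. Both lncRNAs were well above background on 3 of 3 arrays of each genotype, a flag that compares a spot with its background and does not show which transcript gives the signal.

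The Gm17106 spot gave 196, 309 and 247 on the Nrf2 (+/+) arrays, with 3 of 3 well above background. On the Nrf2 (-/-) arrays it gave 7.05, 5.99 and 6.63, with errors of 7.08, 6.01 and 6.66 from the scanner software. The error was as large as the value. These processed values were not the background-subtracted signals given below, so the size of the error is not counted as separate evidence. It also failed the milder flag for a positive and significant spot on all 3 Nrf2 (-/-) arrays. The spot was also set against the local background around it. For Gm17106 the median pixel was 9.73, 12.7 and 13.7 times the local background on the Nrf2 (+/+) arrays and 1.98, 1.68 and 1.91 times on the Nrf2 (-/-) arrays. For B130006D01Rik these ratios were 23.6, 15.9 and 27.1 in Nrf2 (+/+) mice and 7.42, 5.96 and 5.89 in Nrf2 (-/-) mice, and for D030028A08Rik 40.5, 21.1 and 45.8 in Nrf2 (+/+) mice and 6.02, 5.30 and 8.44 in Nrf2 (-/-) mice.

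The array carries 308 Agilent negative control spots, which match no transcript, and these gave the background on each array. On the Nrf2 (+/+) arrays, 0 of these spots reached the processed signal of any of the 3 lncRNAs. On Nrf2 (-/-) replicates 1, 2 and 3, 150, 133 and 57 of the 308 spots were at or above Gm17106, while 0, 1 and 0 were at or above D030028A08Rik and 0, 0 and 0 were at or above B130006D01Rik. On the processed signal Gm17106 thus sat within the negative control spots of these arrays, at 1.00, 1.00 and 1.05 times their median, and the chromosome 11 lncRNAs stood above nearly all of them. The processed signal of such dim spots was not their background-subtracted signal, so the latter was compared too. It was 5.20, 2.11 and 4.46 for Gm17106 on the Nrf2 (-/-) arrays, and 25, 29 and 23 of the 308 spots were at or above it. On this measure Gm17106 was higher than 91.9%, 90.6% and 92.5% of the negative control spots, but below their 95th percentiles of 9.92, 8.31 and 8.27.

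The array maker's own negative set holds 15 probes with 20 spots each, and 2 of these probes were bright on every array. The brighter of them had a median processed signal of 139, 74.2 and 83.6 on the Nrf2 (-/-) arrays. B130006D01Rik was 1.09, 1.51 and 1.06 times that signal on the same arrays, and D030028A08Rik 0.80, 1.24 and 1.34 times. In Nrf2 (+/+) mice the ratios to the same negative probe were 7.64, 6.08 and 6.75 for B130006D01Rik and 12.1, 7.57 and 11.3 for D030028A08Rik. The remaining signal of the chromosome 11 lncRNAs was therefore above the local background and above the Agilent control spots, except for 1 spot that exceeded D030028A08Rik on Nrf2 (-/-) replicate 2, but of the size that a negative probe can reach on these arrays. How much of it comes from the lncRNA itself was not tested.

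**Figure D2:**
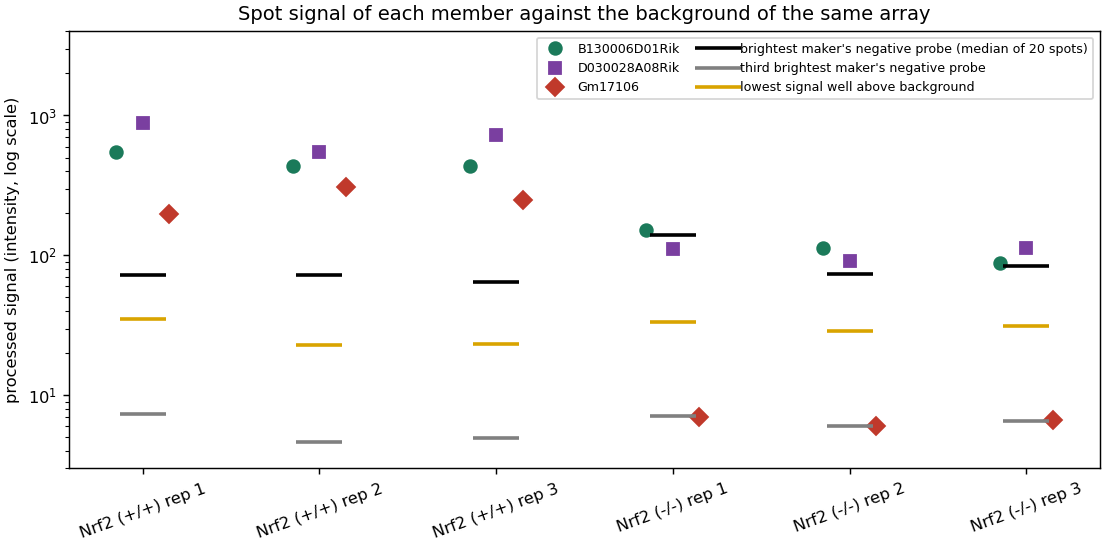
Processed spot signal (intensity, vertical log axis) of the 3 lncRNAs on each of the 6 arrays, with bars for the brightest and the third brightest of the array maker's 15 negative probes and for the smallest signal flagged as well above background. On the Nrf2 (-/-) arrays Gm17106 lies at 5.99 to 7.05, beside the third brightest negative probe, while B130006D01Rik and D030028A08Rik lie near the brightest.

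The pattern of Gm17106 was counted over all tested probes. Well above background on 3 Nrf2 (+/+) arrays and on 0 Nrf2 (-/-) arrays held for 15 of the 43528 tested probes, or 0.0345%. The opposite pattern held for 295 probes, or 0.678%, and the Nrf2 (-/-) arrays were the brighter ones; the part of that brightness in these counts was not tested. Gm17106 is among the 15, all of which passed the filter through the Nrf2 (+/+) arrays alone.

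The sample labels name no slide, so slides were inferred from the scan times recorded with the arrays. Arrays with the same scan time were taken as 1 slide scan. This gave 4 slide scans, of which 2 held an array of each genotype. Within the slide scan that held both replicates 1, the log2 difference between the Nrf2 (-/-) and the Nrf2 (+/+) array was -2.56 for B130006D01Rik, -3.67 for D030028A08Rik and -5.27 for Gm17106. Within the one that held both replicates 3, it was -2.82, -3.20 and -5.71 for the same lncRNAs. The differences within a slide scan were thus close to those over all arrays. A gap of more than 2 hours between scans was taken to separate scan sessions, which gave 2 sessions. The differences in the first and the second were -2.75 and -2.78 for B130006D01Rik, -3.79 and -2.96 for D030028A08Rik, and -5.27 and -5.79 for Gm17106.

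The spots within 2 rows and 2 columns of each lncRNA spot were examined for a local fault of the slides. Of these, 20 probes around B130006D01Rik, 19 around D030028A08Rik and 13 around Gm17106 were tested, and their median log2 differences were 0.09, -0.10 and -0.03. The lowest was -0.91, and 0 of them were lower by 2-fold. No tested spot beside a lncRNA spot shared its 2-fold or larger loss. Only 13 of the 23 probes around Gm17106 were tested, and a fault confined to a lncRNA spot was not tested.

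Across the arrays, the profiles of the 3 lncRNAs were compared after each was centred on its own mean, by the root-mean-square difference in log2 units over 6 arrays. B130006D01Rik and D030028A08Rik were 0.45 apart, D030028A08Rik and Gm17106 1.19, and B130006D01Rik and Gm17106 1.51. The same measure was taken against the 703 named tested probes. For B130006D01Rik the closest were Gm14002 at 0.27, XLOC_002388 at 0.29 and AK144955 at 0.33. For D030028A08Rik they were XLOC_002388 at 0.32, XLOC_014960 at 0.35 and Gm15397 at 0.39, and for Gm17106 Cyct, a testis form of cytochrome c, at 0.59, Nfe2l2 at 0.78 and Gm5136 at 0.86. Of these genes, Gm14002, XLOC_014960, Cyct and Nfe2l2 are on chromosome 2. XLOC_002388, AK144955, Gm15397 and Gm5136 are on chromosome 10, and none is on chromosome 11 or 16. The share of the 703 named probes on each chromosome is not given here, so these locations are a description only. Gm17106, XLOC_014960, Gm15397 and Cyct were well above background on 0 of 3 Nrf2 (-/-) arrays and AK144955 on 1 of 3, so their distances rest in part on values at background. Nearly all named probes were chosen by the study on these arrays for a genotype difference, so a similar profile here means mainly a similar size of that difference.

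Genes near the lncRNAs could be followed only in part, since, apart from the reference genes, a probe could be named only through the study's lists of changed mRNAs and lncRNAs. Of the 20 annotated genes on each side of B130006D01Rik and of D030028A08Rik, which make 80 different genes, 5 had a named probe. All 5 are on those lists because they differed on these arrays, so their direction is not independent evidence. Near B130006D01Rik these were Kat7, a histone acetyltransferase that acts at replication origins and promoters, and Phospho1, a phosphatase of bone mineralization. The mean log2 signal of Kat7 was 6.29 ± 0.61 in the Nrf2 (+/+) and 4.68 ± 0.27 in the Nrf2 (-/-) group (SD, n = 3 each), with 2 of 3 Nrf2 (-/-) arrays well above background. That of Phospho1 was 6.95 ± 0.23 and 5.97 ± 0.47 in the same order. Near D030028A08Rik were the lncRNA probes Gm11525, at 7.69 ± 0.32 and 6.42 ± 0.50, and Gm11532, at 5.73 ± 0.11 and 4.71 ± 0.28, and Hoxb2, a homeobox gene of hindbrain patterning, at 7.03 ± 0.34 and 7.94 ± 0.29 (each SD, n = 3). Their log2 differences were -1.61 for Kat7, -0.98 for Phospho1, -1.27 for Gm11525, -1.02 for Gm11532 and 0.91 for Hoxb2. Each was smaller in size than that of the lncRNA beside it, which had been chosen for its lower signal in this comparison. By limma 0 of the 5 passed an adjusted p of 0.05, with 0.252 the lowest, against 0.0482% of all tested probes in either direction. With slide as a block, 2 of the 5 passed, while the count over all tested probes went from 21 to 568. All 5 were over 1.5-fold different at an unadjusted p under 0.05, as their choice required, against 3.91% of all tested probes. After Benjamini-Hochberg adjustment of the methods' test 0 of the 5 passed, but so did 0 of all tested probes, so this count says nothing about the 5. Between the 2 lncRNA genes of chromosome 11, 4 of the 60 annotated genes had a named probe, of which Phospho1 and Gm11525 were lower and Hoxb2 and Ttll6, a tubulin polyglutamylase at 1.13 on the log2 scale, were higher in Nrf2 (-/-) mice.

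The other changed lncRNAs of the same chromosomes came from the study's list, which was chosen on these arrays. Of 23 listed lncRNA probes on chromosome 11, 21 were lower and 2 higher in Nrf2 (-/-) mice, and of 12 on chromosome 16, 9 were lower and 3 higher. Over all chromosomes the list held 278 probes, 230 lower and 48 higher. The median difference of the lower probes was -1.55 on chromosome 11, -1.35 on chromosome 16 and -1.50 over all. D030028A08Rik and B130006D01Rik had the lowest differences on chromosome 11, followed by Gm11536 at -2.39, and the smallest loss on that list was -1.02 for Gm11532. On chromosome 16, beside Gm17106, the next were 1700119H24Rik at -2.18 and AK029300 at -1.47. The gap between genotypes was 1.11 for Gm11536 and 1.10 for 1700119H24Rik, against 2.40 for B130006D01Rik and 2.71 for D030028A08Rik. The 3 lncRNAs were chosen for their lower signal in this comparison, so their larger losses and gaps follow at least in part from that choice.

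The same flag was counted over all listed lncRNAs that were lower, the 3 described here included. Of the 21 lower probes on chromosome 11, 17 were well above background on 3 Nrf2 (-/-) arrays, 4 on 1 or 2 arrays and 0 on none. Of the 9 on chromosome 16, 7 were well above background on 3 arrays, 1 on 1 or 2 and 1, Gm17106, on none. Over all 230 lower lncRNA probes these counts were 170, 51 and 9. The flag alone does not show a transcript, since 40, 42 and 42 of the 300 spots of the array maker's negative set were also well above background on Nrf2 (-/-) replicates 1, 2 and 3.

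**Figure D3:**
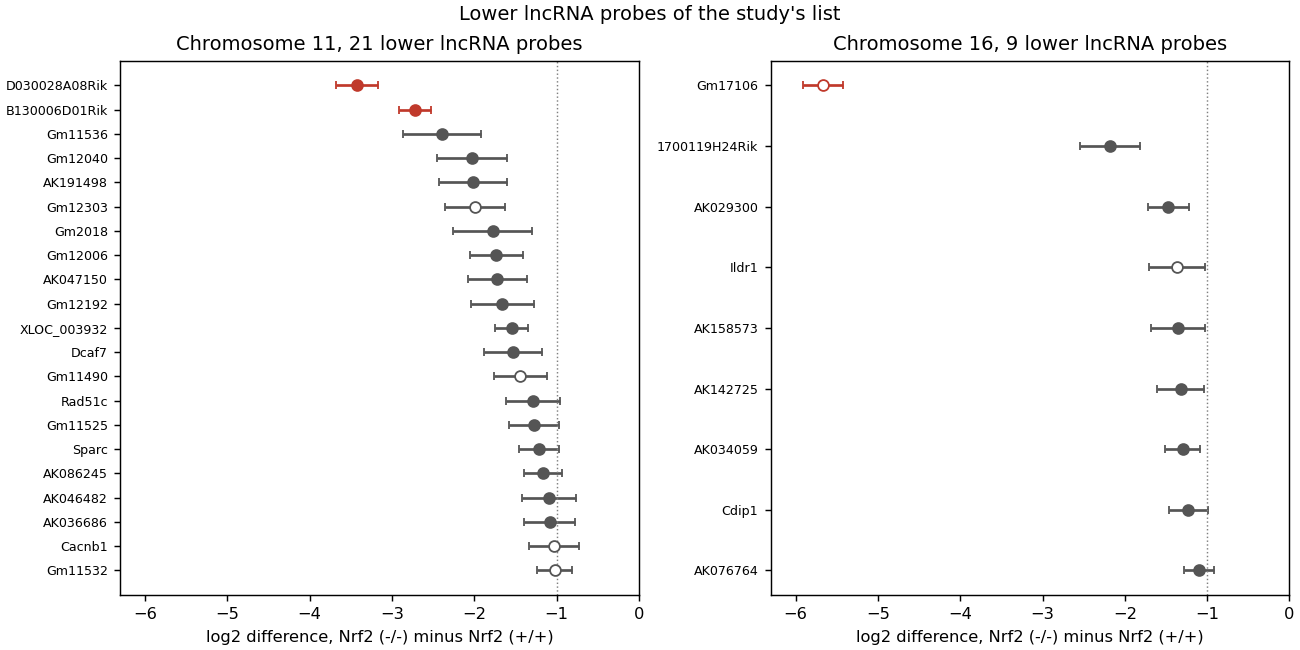
Log2 difference between Nrf2 (-/-) and Nrf2 (+/+) mice (horizontal axis) with its SE for the 21 lower lncRNA probes of chromosome 11 and the 9 of chromosome 16 in the study's list; red marks the 3 lncRNAs described, filled points were well above background on 3 Nrf2 (-/-) arrays, open points on fewer, the dotted line is a 2-fold loss, and lncRNA probes carry the gene name of the list. The point of Gm17106, at -5.67, uses Nrf2 (-/-) values below background and stands for a loss of at least 13.6-fold; that of 1700119H24Rik is at -2.18.

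**Figure D4:**
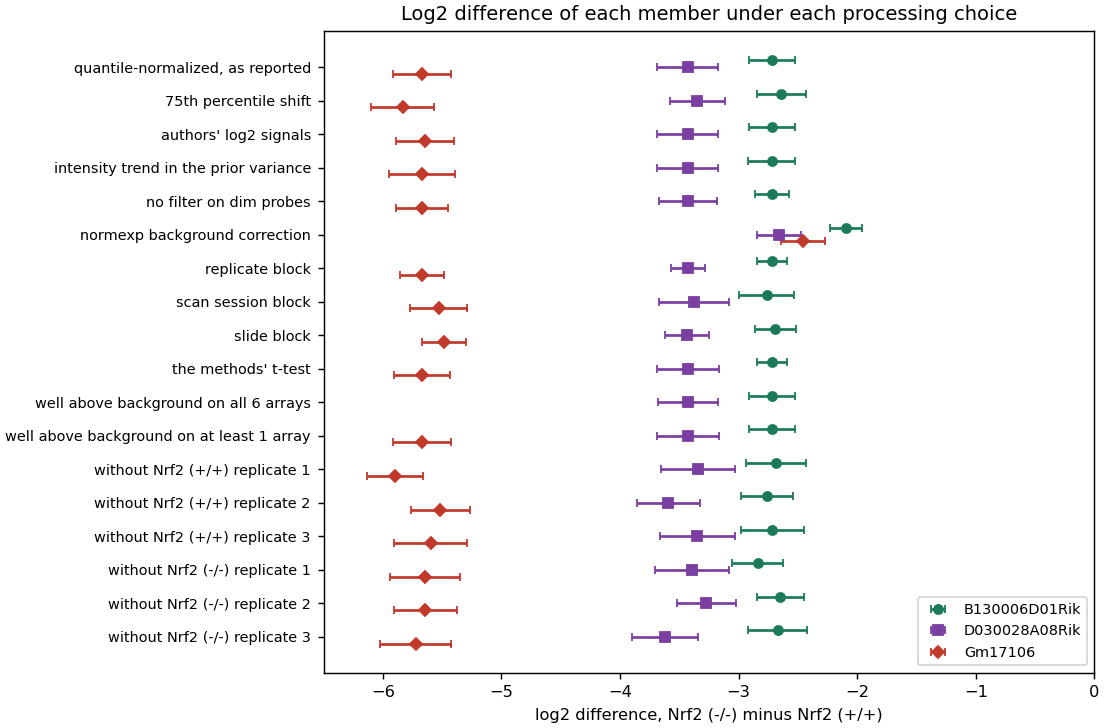
Log2 difference with its SE (horizontal axis) of the 3 lncRNAs under each processing choice (vertical axis); Gm17106 has no value where probes had to be well above background on all 6 arrays. B130006D01Rik ranged from -2.84 to -2.10, D030028A08Rik from -3.62 to -2.66 and the measured difference of Gm17106 from -5.90 to -2.46, with the smallest loss of each under normexp.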

How the data were processed

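Total RNA of the hippocampus of 6 mice was depleted of rRNA, labelled with Cy3 by random priming and hybridized to Arraystar mouse lncRNA V3 arrays. The authors deposited the spot intensity of each array, background-subtracted by Agilent Feature Extraction 11.0.1.1, and a table of quantile-normalized log2 signals, used as an alternative. The 3 lncRNAs and all gene lists were chosen with earlier results of these data known.

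Here log2 processed signals were averaged per probe, quantile-normalized, and probes flagged as well above background on 3 or more of 6 arrays were kept. Genotypes were compared with limma 3.58.1 in R 4.3.3 (lmFit, eBayes), with Benjamini-Hochberg adjustment over 43528 probes; Python 3.11.15 was used for the rest. The script was tested on simulated data. Each genotype was 3 mice, which limits the precision. The files pair few probes with genes: 412 mRNA and 303 lncRNA list entries were each matched to 1 probe by their printed values, within a relative tolerance of 0.0001, which named 412 and 278 different probes. Gene order and promoters came from RefSeq for GRCm38.p6, with no coordinates taken from the gene table.

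Besides the 3 lncRNAs and Nfe2l2, the text names the neighbours among 20 genes on each side that have a named probe, and for each lncRNA the 3 closest named profiles; Ttll6 and the other listed lncRNAs of chromosomes 11 and 16 were named after their values were seen. The alternatives were a shift to the 75th percentile, normexp on the median spot signal (the plan named the mean signal), the authors' log2 signals, other limits on dim probes, an intensity trend, the methods' test, blocks for replicate number, slide and scan session, and each array left out in turn. Slide and scan session were inferred from scan times.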

Additional observations from a re-analysis of the deposited data

How the results depend on the processing

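The lower signal of all 3 lncRNAs kept its direction under every alternative run. Under normexp the log2 differences were -2.10 for B130006D01Rik, -2.66 for D030028A08Rik and -2.46 for Gm17106; its offset of 50 is far above the dim Gm17106 spots. With each array left out in turn, they ran from -2.84 to -2.65, from -3.62 to -3.27 and from -5.90 to -5.51. Gm17106 has no value where all 6 arrays had to be well above background. With the background-subtracted signal, 77 negative control spots, summed over the Nrf2 (-/-) arrays, were at or above Gm17106, against 340 with the processed signal.

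The main comparison did not treat replicate numbers as pairs of mice, and whether they are pairs was not settled. The correlations of same-numbered arrays' deviations were mixed, at -0.15, 0.43 and 0.81 for replicates 1, 2 and 3. Both replicates 1 shared a slide scan, and so did both replicates 3. With the replicate number as a block, the difference of Nfe2l2 was -4.27 with an adjusted p of 0.058, and 0 probes passed an adjusted p of 0.05, with 7090 at an unadjusted p under 0.05. After Benjamini-Hochberg adjustment, which the study did not use to select mRNAs, the methods' test gave Nfe2l2 -4.27 with an adjusted p of 0.124. With it 0 probes passed an adjusted p of 0.05, and 2530 had an unadjusted p under 0.05. The adjusted p of Nfe2l2 was under 0.05 in all other alternatives, and its difference ran from -4.41 to -4.18 with an array left out.

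The number of probes past an adjusted p of 0.05 was 21 in limma, 9 without a filter on dim probes, 9 with all 6 arrays above background and 568 with slide as a block. It ran from 8 to 195 with an array left out, 195 being without Nrf2 (-/-) replicate 2 8 without Nrf2 (+/+) replicate 1. Leaving out Nrf2 (+/+) replicate 3 gave 10 such probes, and leaving out Nrf2 (-/-) replicate 3 gave 12. Of the 5 neighbouring genes, 2 passed an adjusted p of 0.05 with slide as a block, and 3 passed an unadjusted p of 0.05 with a fold change over 1.5 under normexp; with an array left out these counts stayed at 0 and 5. With all 6 arrays above background 3 passed, because that filter removes Kat7 and Gm11532. The cause of the other shifts was not tested.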
